A study of Mus musculus with 7 samples.

Results

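The genes described here are the 9 classical interneuron genes Gad1, Gad2, Slc32a1, Pvalb, Calb2, Sst, Vip, Cck and Npy, taken from the 22248 genes of a count table by matching Ensembl identifiers, without their version, to these symbols. All 9 were found, and all 9 passed the filter on low counts that left 14654 genes for testing. They were measured in synaptoneurosomes, a subcellular fraction enriched in resealed nerve terminals together with the postsynaptic membrane they contact, prepared from the hippocampus of wild-type female C57Bl/6J mice. There were 4 libraries after sub-chronic AM6545 (replicates B, D, E and F) and 3 after vehicle (replicates B, D and E), and both groups share strain, sex and genotype. AM6545 blocks CB1, the cannabinoid receptor that Cnr1 encodes, and acts mainly outside the brain. The dose, the duration, the age and the number of mice in each library are not given in the labels, so p-values measure only the spread between these libraries, which may be partly technical. The title of the series concerns cognition and hippocampal synaptic plasticity in naïve mice.

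Interneurons are the inhibitory neurons of the hippocampus. They make GABA from glutamate with the glutamate decarboxylases encoded by Gad1 and Gad2, and load it into synaptic vesicles with the transporter encoded by Slc32a1. Their classes are told apart by calcium-binding proteins, such as parvalbumin (Pvalb) and calretinin (Calb2), and by neuropeptides, such as somatostatin (Sst), vasoactive intestinal peptide (Vip), cholecystokinin (Cck) and neuropeptide Y (Npy), which are cut from larger precursors and released from dense-core vesicles. Cck-expressing basket cells carry much of the CB1 receptor of the hippocampus, and Cck is also expressed by pyramidal neurons.

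None of the 9 genes passed the test between AM6545 and vehicle, against a background of 0.00682% of tested genes (1 of 14654; edgeR's quasi-likelihood test, Benjamini-Hochberg adjusted p under 0.05). Before adjustment, 3 of the 9 genes had p under 0.05 in edgeR, and all 3 were lower in AM6545. These were the neuropeptide genes Sst, Cck and Npy, lower by 24.8% to 25.1% of the fitted vehicle level. Over all genes tested, 8.70% were lower with an unadjusted p under 0.05 and 5.86% were higher, and none of the 9 was among the higher ones. With DESeq2 0 of the 9 passed, and with limma-voom with sample quality weights, which changes both the test and the weight of each library, 1 did, Npy, beside 1.79% of all genes tested that were lower there. In a bulk preparation such as this, fewer nerve endings of a class and less RNA in each cannot be told apart.

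Library totals lay between 19174649 and 25894733 counts. Values below are normalised counts, scaled by TMM and given as CPM, unless a per-length scale is named. The least abundant member, Slc32a1, had from 136 to 294 counts in a library, so that counting error alone was 8.56% of its lowest value, while for Gad1 it was 1.36%. The library vehicle B stood apart in several measures. Mitochondrially encoded genes took 9.83% of its counts against 5.07% to 6.66% in the other 6 libraries, and it held the highest value of 6 of the 9 genes and the lowest value of 2.

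Levels of different genes were compared per length, as transcript counts divided by transcript length and scaled to a common sum per library. On this scale Cck had the highest level of the 9 genes, at a mean of 834 over the 7 libraries, above 99.0% of the genes tested. Sst followed at 636. Cck was above Sst in 7 of 7 libraries, although the ranges of both genes over the libraries overlapped. Gad1 (186) and Npy (160) came next and changed places between libraries, with Gad1 higher in 5 of 7. The lowest level of Sst lay above the highest of Gad1, and the lowest of Npy lay above the highest of Calb2 (89.8). Below it, Pvalb (48.9) and Vip (33.7) overlapped, as did Vip and Gad2 (31.0), and each of these pairs changed places in at least 1 library. Slc32a1 was lowest at 5.84, below each of the other 8 genes in all 7 libraries, and only 33.3% of the genes tested were below it. Among the genes for GABA, Gad1 was thus above Gad2, and the mRNA of the vesicular transporter was scarcer per length than that of either decarboxylase.

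**Figure D1:**
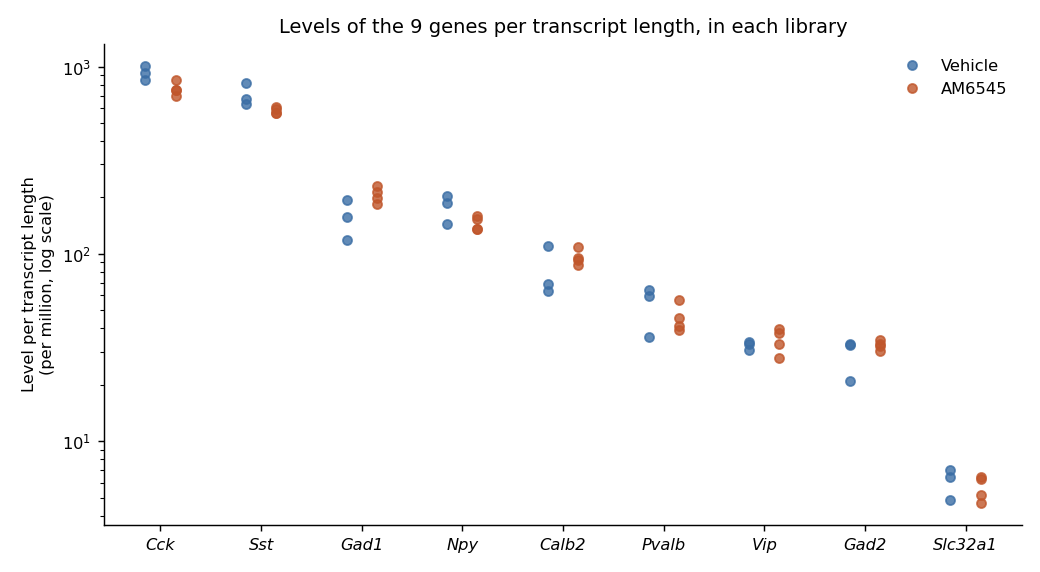
Per-length level of the 9 interneuron genes (log scale, transcript counts divided by length and scaled to a common sum per library), 1 point per library, coloured by treatment, in order of the mean over 7 libraries. Cck and Sst stand above the other genes in every library, and Slc32a1 stands below them.

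Among the genes that make and load GABA, none changed by the test. Gad1 encodes GAD67, the decarboxylase that makes most of the GABA of the brain (ENSMUSG00000070880, GRCm38 chr2:70553072-70602014, plus strand). Its level was 363, 310, 284 and 330 CPM in AM6545 B, D, E and F and 218, 249 and 321 CPM in vehicle B, D and E. Vehicle E lay within the AM6545 range, and the other 2 vehicle libraries lay below it. The means were 322 ± 33.1 (SD, n = 4) and 263 ± 53.0 (SD, n = 3), a log2 fold change of 0.29 with a 95% interval from -0.00 to 0.59 (SE 0.135, edgeR unadjusted p 0.0506, adjusted p 0.345). A processed pseudogene, Gad1-ps, matches it at 94.2% over 1788 bases, so part of its count is uncertain.

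Gad2 encodes GAD65, the decarboxylase found mostly at nerve terminals (ENSMUSG00000026787, chr2:22622205-22693874, plus strand). It was measured at 100, 86.4, 89.3 and 83.8 CPM in AM6545 B, D, E and F and at 69.7, 88.6 and 91.0 CPM in vehicle B, D and E. Only vehicle B lay outside the range of the AM6545 libraries on the low side, and the log2 fold change was 0.12 (SE 0.115, 95% interval -0.14 to 0.37, edgeR adjusted p 0.650). Slc32a1 encodes the vesicular GABA transporter VGAT (ENSMUSG00000037771, chr2:158610767-158615748, plus strand). Its values were 9.08, 9.16, 7.20 and 6.64 CPM in AM6545 B, D, E and F and 11.8, 9.27 and 7.36 CPM in vehicle B, D and E, so the groups overlapped. Its log2 fold change was -0.25 (SE 0.178, 95% interval -0.63 to 0.14, edgeR adjusted p 0.521). An antisense gene, Gm14205, overlaps the exons of Slc32a1 on the other strand, and since the use of strand is not given in the sources used here, reads of both cannot be told apart.

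Of the calcium-binding proteins, parvalbumin marks fast-spiking basket and axo-axonic cells and calretinin marks interneurons that contact other interneurons, and calretinin is also found in mossy cells of the mouse dentate hilus. Pvalb (ENSMUSG00000005716, chr15:78191114-78206400, minus strand) had 20.8, 22.5, 19.1 and 28.2 CPM in AM6545 B, D, E and F and 37.4, 29.9 and 19.0 CPM in vehicle B, D and E. Vehicle B and D lay above every AM6545 library and vehicle E below them, and the log2 fold change was -0.35 (SE 0.204, 95% interval -0.80 to 0.10, edgeR adjusted p 0.449). Calb2 (ENSMUSG00000003657, chr8:110137502-110168210, minus strand) had 70.6, 67.6, 77.8 and 63.5 CPM in AM6545 and 59.6, 81.2 and 49.2 CPM in vehicle, in the same order of libraries. Its 3 vehicle values spanned the whole AM6545 range, and the log2 fold change was 0.14 (SE 0.150, 95% interval -0.19 to 0.47, edgeR adjusted p 0.677).

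None of the 4 neuropeptide genes passed the test. Sst, Cck and Npy had nearly equal log2 fold changes, from -0.42 to -0.41, and that of Vip was -0.04. Their summed level was 516 to 591 CPM in the AM6545 libraries and 636 to 875 CPM in vehicle, and the ranges did not overlap. Their median log2 fold change was -0.41, against 0.01 over all 14654 genes tested. The median was -0.32 over the 882 genes with transcripts under 1000 nt, to which Sst, Cck and Npy belong. Since the genes were chosen with results of these data known, no test was run on the sum.

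Sst encodes the precursor of somatostatin, which dendrite-targeting interneurons such as those of the stratum oriens release (ENSMUSG00000004366, chr16:23889573-23890958, minus strand). Its level was 212, 217, 202 and 223 CPM in AM6545 B, D, E and F and 356, 248 and 247 CPM in vehicle B, D and E. All 4 AM6545 libraries were below all 3 vehicle libraries. The means were 213 ± 8.88 (SD, n = 4) and 284 ± 62.4 (SD, n = 3), with a log2 fold change of -0.41 (SE 0.128, 95% interval -0.69 to -0.13, edgeR unadjusted p 0.00708, adjusted p 0.231). Most of the spread in vehicle came from vehicle B.

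Cck encodes the cholecystokinin precursor (ENSMUSG00000032532, chr9:121489824-121495694, minus strand). It had 268, 263, 240 and 297 CPM in AM6545 B, D, E and F and 419, 329 and 319 CPM in vehicle B, D and E. Here too the groups did not overlap, with means of 267 ± 23.3 (SD, n = 4) and 356 ± 55.3 (SD, n = 3). The log2 fold change was -0.41 (SE 0.117, 95% interval -0.67 to -0.16, edgeR unadjusted p 0.00407, adjusted p 0.212). Over all genes tested, 7.19% were lower in AM6545 with groups that did not overlap, as were Sst and Cck of these 9.

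Npy encodes the neuropeptide Y precursor, made by neurogliaform and ivy cells and by many somatostatin cells (ENSMUSG00000029819, chr6:49822710-49829507, plus strand). Its level was 39.5, 39.2, 43.6 and 45.9 CPM in AM6545 B, D, E and F and 69.4, 54.4 and 44.4 CPM in vehicle B, D and E. Vehicle E lay between AM6545 E and F, so 3 of 4 AM6545 libraries were below every vehicle library. The log2 fold change was -0.42 (SE 0.138, 95% interval -0.72 to -0.12, edgeR unadjusted p 0.0103, adjusted p 0.245), from 56.1 ± 12.6 (SD, n = 3) in vehicle to 42.0 ± 3.22 (SD, n = 4) in AM6545.

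Vip, whose peptide marks interneurons that inhibit other interneurons, stood close to 0 (ENSMUSG00000019772, chr10:5639218-5647617, plus strand). It had 21.9, 29.5, 30.3 and 25.6 CPM in AM6545 B, D, E and F and 30.5, 26.5 and 25.4 CPM in vehicle B, D and E. The groups overlapped throughout, and the log2 fold change was -0.04 (SE 0.128, 95% interval -0.31 to 0.24, edgeR adjusted p 0.912). The difference between the fold change of Vip and those of the other 3 peptides was not tested.

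**Figure D2:**
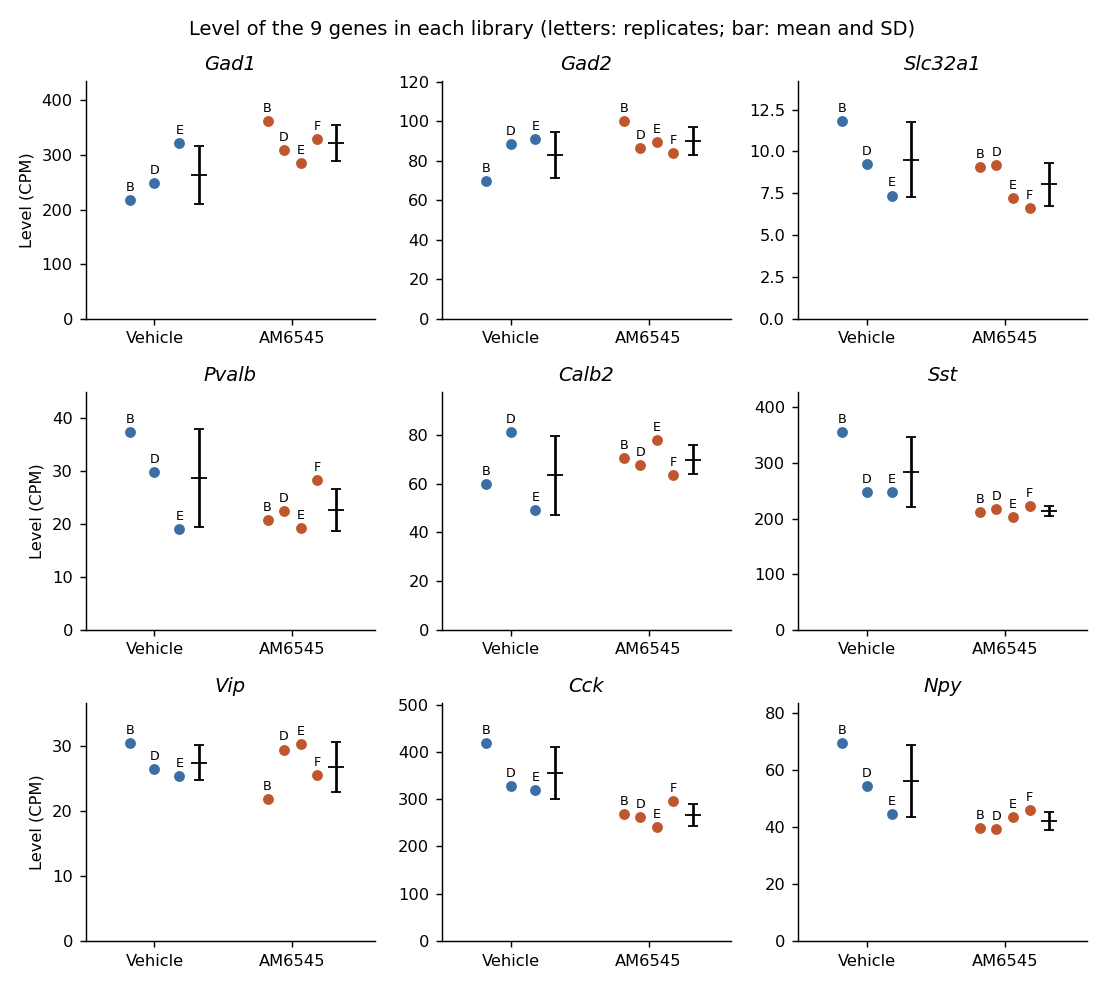
CPM of the 9 interneuron genes in each of the 7 libraries, 1 panel per gene with its own axis from 0, with points for libraries, lettered by replicate, and bars for the mean and SD of each treatment. The 4 AM6545 libraries lie below the 3 vehicle libraries for Sst and Cck, and vehicle B is highest for Sst, Cck, Npy, Pvalb, Slc32a1 and Vip.

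The sequences before the transcription start are printed for the 4 neuropeptide genes, the members with the most alike log2 fold changes (Sst, Cck and Npy) being among them. They are the 250 bases before the RefSeq start, 5′ to 3′ on the gene's strand, from RefSeq on GRCm38.p6. Capitals mark the cAMP response element TGACGTCA, to which the factor CREB binds, or its core TGACG, which is also part of the longer element, on either strand. The regions are chr16:23890845-23891094 (minus strand) for Sst, chr9:121495695-121495944 (minus strand) for Cck, chr6:49822460-49822709 (plus strand) for Npy and chr10:5638968-5639217 (plus strand) for Vip.
Sst: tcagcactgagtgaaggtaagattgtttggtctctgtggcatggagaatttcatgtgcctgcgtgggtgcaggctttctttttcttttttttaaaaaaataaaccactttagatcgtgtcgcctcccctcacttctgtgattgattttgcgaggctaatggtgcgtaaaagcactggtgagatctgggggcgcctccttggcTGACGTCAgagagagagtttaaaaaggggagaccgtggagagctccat
Cck: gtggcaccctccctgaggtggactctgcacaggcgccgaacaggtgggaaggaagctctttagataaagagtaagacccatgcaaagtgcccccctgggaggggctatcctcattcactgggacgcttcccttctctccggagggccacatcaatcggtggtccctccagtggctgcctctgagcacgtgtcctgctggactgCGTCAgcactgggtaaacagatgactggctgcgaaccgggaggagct
Npy: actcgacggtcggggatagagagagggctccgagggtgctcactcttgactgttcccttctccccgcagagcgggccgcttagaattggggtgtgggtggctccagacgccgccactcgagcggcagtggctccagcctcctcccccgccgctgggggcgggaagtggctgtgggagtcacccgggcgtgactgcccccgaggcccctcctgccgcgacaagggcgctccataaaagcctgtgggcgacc
Vip: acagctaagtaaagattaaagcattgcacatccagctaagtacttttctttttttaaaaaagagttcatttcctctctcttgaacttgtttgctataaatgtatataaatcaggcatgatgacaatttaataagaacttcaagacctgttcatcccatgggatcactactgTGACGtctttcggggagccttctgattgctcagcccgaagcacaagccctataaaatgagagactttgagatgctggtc
Sst holds the full element, its first base at -48 counted from the RefSeq start. The GENCODE model of Sst begins further upstream, so that this element lies within that model. Cck holds the core alone, read on the opposite strand, with its first printed base at -47, and Vip holds it at -79. In Npy neither was found in these letters. In windows from 250 bases before to 50 after the start, TGACGTCA was found on either strand in 1.79% of 32851 RefSeq promoters and TGACG in 20.8%. A match describes these letters only and is no evidence of binding. Of the 9 genes, 8 have an entry in this table, all but Calb2. Outside the neuropeptide genes, Gad2 also holds the core, read on the opposite strand, with its first base at -33.

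The mRNAs of Sst, Cck and Npy are short. Weighted by transcript, their mean lengths were 721, 692 and 566 nt, and that of Pvalb was 976 nt, whereas the other 5 genes ranged from 1430 nt (Calb2) to 5693 nt (Gad2). Grouping all genes by length, a description added after the values were seen, gave a median log2 fold change of -0.32 for the 882 tested genes under 1000 nt, of which 91.7% were lower in AM6545. The median was -0.02 for 6827 genes of 1000 to under 3000 nt and 0.06 for 6924 genes of at least 3000 nt. Genes of high GC content were also lower, with a median of -0.12 for 3827 genes of at least 55% GC and of 0.14 for 3212 genes under 45%. Within the short genes, 32.5% of the other 881 lay below Sst, 32.4% below Cck, 31.1% below Npy and 44.0% below Pvalb. All 4 lay between the quartiles of their class, -0.46 and -0.19. Of the short genes, 47.2% were lower with an unadjusted p under 0.05. Gad1 had a larger log2 fold change than 88.3% of the other long genes, and Slc32a1 a lower one than 86.3% of genes of 1000 to under 3000 nt.

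**Figure D3:**
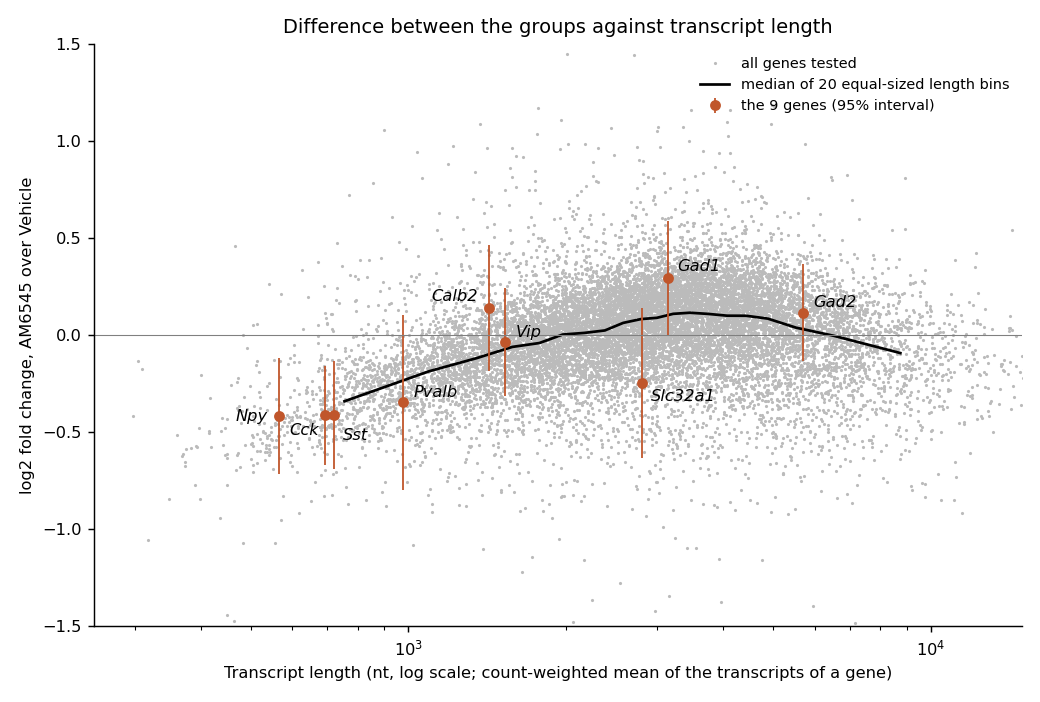
Log2 fold change of AM6545 over vehicle against transcript length (log scale) for all genes tested (grey, values beyond the axis not drawn), their median in bins of equal size (black line) and the 9 interneuron genes with 95% intervals (orange). Short genes lie mostly below 0, and Sst, Cck, Npy and Pvalb lie within that cloud.

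Vehicle B was the highest library both for short genes and for Sst, Cck and Npy. Deviations are from the mean over the 7 libraries, on the log2 scale. The short genes had a median deviation of 0.43 in vehicle B, 0.08 in vehicle D and 0.03 in vehicle E, and of -0.12, -0.15, -0.21 and -0.07 in AM6545 B, D, E and F. Sst deviated by 0.57 in vehicle B, by 0.05 in both other vehicle libraries, and by -0.18, -0.14, -0.25 and -0.10 in AM6545 B, D, E and F. Cck deviated by 0.48 in vehicle B and by -0.32 in AM6545 E, its extremes as for the short genes. Gad1 ran the other way, at -0.42 in vehicle B and 0.31 in AM6545 B. What part transcript length, GC content or RNA quality has in these differences was not tested.

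**Figure D4:**
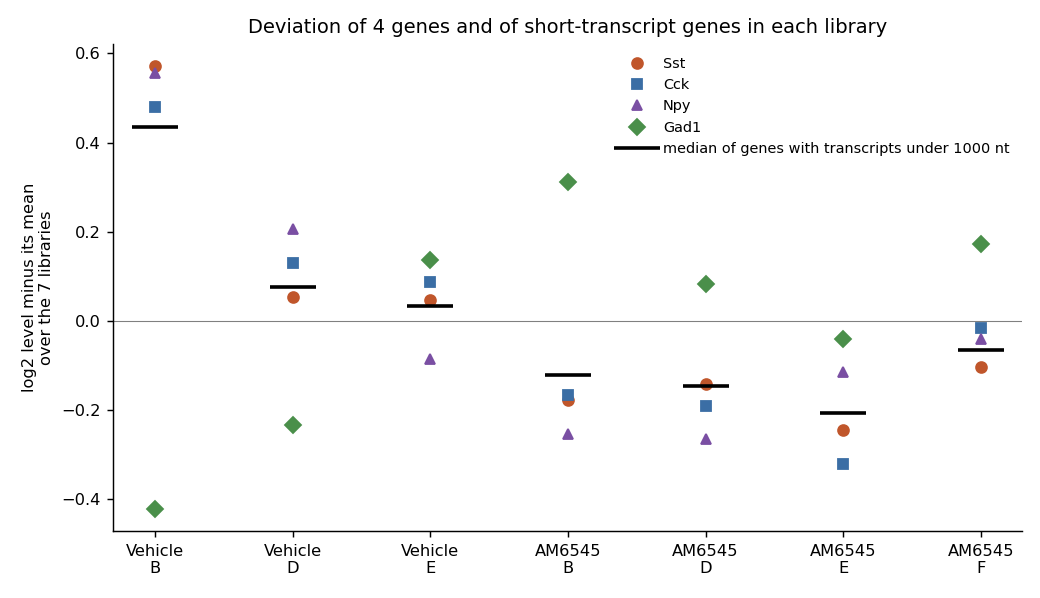
Log2 deviation of Sst, Cck, Npy and Gad1 in each of the 7 libraries, with horizontal bars for the median deviation of the 882 genes under 1000 nt. Vehicle B is highest for the 3 peptide genes and for short genes, and lowest for Gad1.

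After a correction of each library for GC content and transcript length, the log2 fold changes became -0.00 for Sst, 0.03 for Cck, 0.04 for Npy, -0.17 for Pvalb and 0.15 for Gad1, and none of the 9 genes had an adjusted p under 0.780. Single libraries also set the size. Without vehicle B the fold changes were -0.21 for Sst, -0.27 for Cck, -0.23 for Npy, -0.11 for Pvalb and 0.18 for Gad1 (edgeR adjusted p 0.700 or above for all 9 genes). Without vehicle E, 5 of the 9 genes passed edgeR's test. Sst was then at a log2 fold change of -0.50 (adjusted p 0.0375), Cck at -0.48 (0.0357), Npy at -0.56 (0.0261) and Pvalb at -0.57 (0.0412), and Gad1 at 0.46 (0.0393). In that fit 4.07% of all genes tested were lower and 2.30% were higher past the same threshold.

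**Figure D5:**
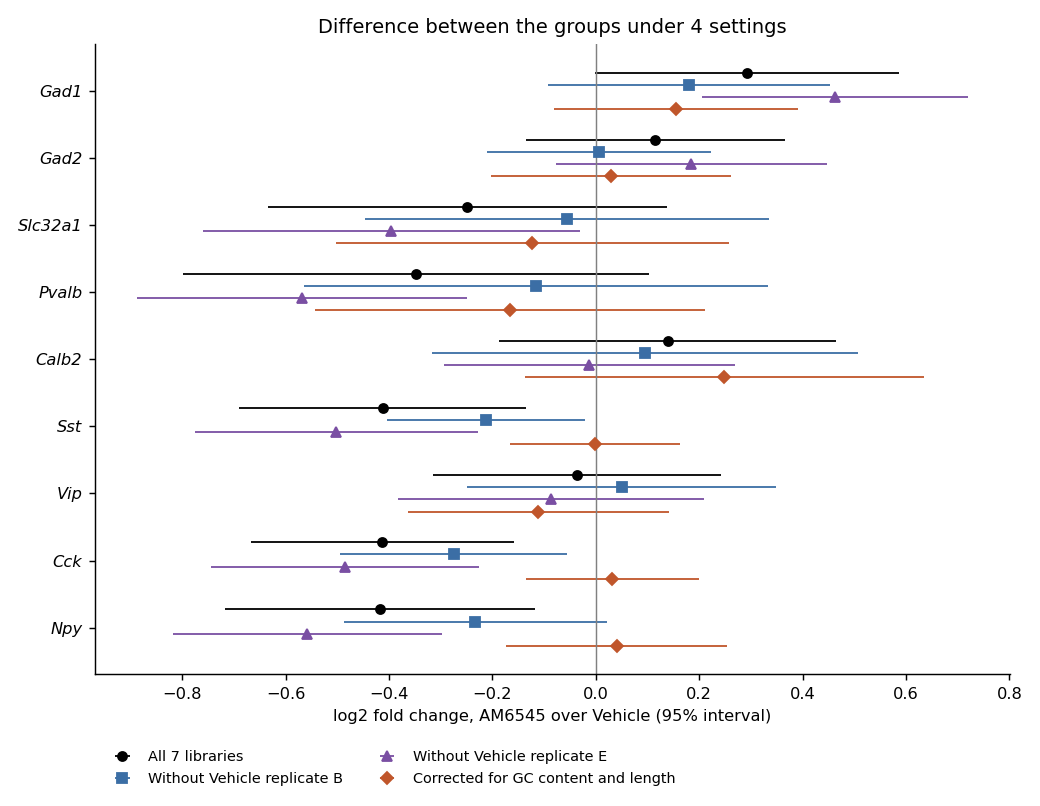
Log2 fold change of AM6545 over vehicle for the 9 genes with 95% intervals in edgeR, for all 7 libraries (black), without vehicle B (blue), without vehicle E (purple) and after correction for GC content and length (orange). The intervals of Sst, Cck and Npy lie below 0 with all libraries and without vehicle E, and span 0 after the correction. Without vehicle B those of Sst and Cck lie below 0 and that of Npy spans 0.

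Ratios within a library do not depend on scaling between libraries, and 4 were tested. They were not corrected for GC content or length, in which the paired genes differ, such as Slc32a1 at 61.9% GC and Gad1 at 47.3%. The two-sided exact permutation p-values rest on 35 arrangements of 4 and 3 libraries, so that the smallest possible value is 0.0286. The log2 ratio of Slc32a1 to Gad1, transporter to enzyme, was -5.33 ± 0.23 in AM6545 (SD, n = 4) and -4.80 ± 0.62 in vehicle (SD, n = 3; exact p 0.2, adjusted over the 4 ratios 0.4). That of Gad2 to Gad1 was -1.84 ± 0.12 and -1.65 ± 0.17 (exact p 0.143, adjusted 0.4). The ratio of Sst to Pvalb, 3.25 ± 0.19 and 3.34 ± 0.33, differed by less than its spread (exact p 0.743, adjusted 0.99). Npy to Sst was almost equal in both groups, -2.35 ± 0.12 and -2.34 ± 0.14 (exact p 1).

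The transcript table held 25 transcripts of the 9 genes, of which 19 passed the filter, and none of these passed the test (edgeR, adjusted over 33962 transcripts, of which 0.0177% passed). Unadjusted, 3 were lower with p under 0.05, against 4.50% of all transcripts tested. These were the main transcripts of the same genes: Cck-201 (-0.41, edgeR adjusted p 0.559), Sst-201 (-0.41, 0.559) and Npy-201 (-0.41, 0.569). Gad1 counts were divided between the coding Gad1-201 of 3355 nt and Gad1-206 of 2996 nt, annotated as a processed transcript. Gad1-201 took 50.4% ± 2.97 of the gene's counts in AM6545 (SD, n = 4) and 45.4% ± 6.03 in vehicle (SD, n = 3), with a log2 fold change of 0.43 (edgeR adjusted p 0.638). Gad1-206 took 48.3% ± 3.09 and 53.5% ± 6.12, with a log2 fold change of 0.17 (edgeR adjusted p 0.751). Sst, Npy and Slc32a1 are annotated with a single transcript.

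Around these 9 genes, 6 lists of related genes were examined, and in none did a gene pass edgeR's adjusted threshold. Over all genes tested 48.6% were lower in AM6545, with a median log2 fold change of 0.01, and 8.70% were lower and 5.86% higher at an unadjusted p under 0.05. Of 12 genes for GABA uptake and breakdown and for the supply of glutamate, 7 were lower and 5 higher (median log2 fold change -0.05). Glul, the astrocytic glutamine synthetase, stood at -0.33 (edgeR adjusted p 0.235). Of 17 interneuron transcription factors and identity genes tested of 18, 8 were lower and 9 higher (median 0.02), and 1 had an unadjusted p under 0.05, Zeb2, at 0.21 (edgeR adjusted p 0.326). Of 30 other markers of interneuron classes, 19 were lower (median -0.10), 3 of them with an unadjusted p under 0.05. These were Acan, the aggrecan of perineuronal nets (-0.60, edgeR adjusted p 0.245), Kcnc1, a potassium channel of fast-spiking cells (-0.28, 0.261), and the chemokine gene Cxcl14 (-0.28, 0.315). Such a share, 3 of 30, is near that of all genes tested. Without vehicle B Cxcl14 was at -0.14, and once GC content and length were corrected for Kcnc1 was at -0.17. Glul and Zeb2, and Pcsk1n, Ptprn and Slc1a2 named below, overlap other annotated genes, so their counts are uncertain.

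For the peptides, 16 genes listed for processing and dense-core vesicles were measured, of which 10 were lower (median -0.05). The list held Carmil2 (-0.20) among the lower ones, which is not a gene of this kind. Pcsk1n, an inhibitor of a peptide-cleaving convertase, stood at -0.53 (edgeR adjusted p 0.199), the vesicle protein gene Ptprn at -0.32 (0.267) and the vesicle-priming gene Cadps2 at 0.28 (0.325). Of the 14 receptors of these peptides 12 were tested, 7 lower and 5 higher (median -0.02). Npy2r, a presynaptic receptor of neuropeptide Y, was at 0.29 (edgeR adjusted p 0.314), the 1 receptor with an unadjusted p under 0.05, and at 0.07 once GC content and length were corrected for. On the receiving side, 13 of 15 genes listed for the inhibitory postsynapse were matched and tested, and 9 were lower (median -0.10). Among the 9 was Inhba (-0.005), which is not a postsynapse gene. The others included the adhesion gene Nlgn2 (-0.84, edgeR adjusted p 0.269), the scaffold-binding gene Iqsec3 (-0.52, 0.236) and the GABA receptor partner Shisa7 (-0.33, 0.266). Without vehicle E, Pcsk1n (-0.63, edgeR adjusted p 0.0247), Iqsec3 (-0.69, 0.0239) and Nlgn2 (-1.14, 0.0214) passed, beside 4.07% of all genes tested that were lower there. Without vehicle B these were at -0.33, -0.28 and -0.33, Ptprn was at -0.14, Shisa7 at -0.17 and Cadps2 at 0.15 (edgeR adjusted p 0.644 or above). The correction brought Iqsec3 to -0.32, Pcsk1n to -0.45 and Nlgn2 to -0.71. With all 7 libraries Pcsk1n also passed in DESeq2 (-0.54, adjusted p 0.0299) and in the weighted limma-voom fit (-0.37, adjusted p 0.0489). In these fits 205 and 394 genes passed. Cnr1 itself had 104 ± 9.55 CPM in AM6545 (SD, n = 4) and 98.7 ± 16.5 in vehicle (SD, n = 3), a log2 fold change of 0.07 (SE 0.12, edgeR adjusted p 0.797), and of 0.22 without vehicle B and -0.01 without vehicle E.

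Markers of other cells were read beside these values, all of them above the filter and none at 0. The 10 excitatory neuron markers summed to 4070 to 4480 CPM in AM6545 and 4560 to 5223 in vehicle, and 9 of 10 were lower (median -0.21), with Nrgn at -0.37 (edgeR adjusted p 0.276), at -0.17 once GC content and length were corrected for and at -0.22 without vehicle B. Of 9 microglial markers 7 were lower (median -0.22), among them C1qb at -0.45 (edgeR adjusted p 0.212), or -0.17 after that correction. Their sum was 991 to 1081 CPM in AM6545 and 1034 to 1311 in vehicle. At an unadjusted p under 0.05 in edgeR, 5 of 9 microglial and 3 of 10 excitatory markers were lower, against 8.70% of all genes tested. The groups did not overlap for 5 microglial markers and 1 excitatory marker, all lower in AM6545, against 7.19% of all genes tested. All 7 choroid plexus markers had a log2 fold change below 0, from -0.75 to -0.06 (median -0.25). None had an unadjusted p under 0.05 in edgeR, and AM6545 F held the lowest value of each. Their sums, 427 to 2032 CPM and 1612 to 2850, overlapped. Sums of astrocyte markers (4094 to 5136 and 4279 to 5547 CPM; 4 of 8 lower, although Slc1a2 stood at -0.45, edgeR adjusted p 0.245, at -0.54, adjusted p 0.0477, without vehicle E, and at -0.27, adjusted p 0.781, without vehicle B), oligodendrocyte markers (17348 to 20472 and 17035 to 23313; 6 of 8 lower), endothelial and mural markers (79.9 to 122 and 83.5 to 115; 3 of 8 lower) and dentate granule markers (264 to 327 and 297 to 344; 3 of 6 lower) overlapped between the groups. The 9 interneuron genes summed to 994 to 1105 CPM in AM6545 and 1116 to 1272 in vehicle. These ranges did not overlap, and neither did those of the excitatory neuron markers. Within the 9 genes, only the neuropeptide part had ranges that did not overlap (516 to 591 CPM and 636 to 875). It includes Cck, which pyramidal neurons also express. The 3 genes that make and load GABA summed to 380.9 to 472.4 CPM in AM6545 and 299.7 to 419.8 in vehicle. These ranges overlapped, and 2 of the 3 genes were higher in AM6545. The sums of Pvalb and Calb2 overlapped as well. The part of cell composition in the peptide values was not tested.

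The profile of each gene over the 7 libraries was compared with the others by the root mean square difference of standardised log2 CPM. The most alike of the 9 were Sst and Cck, at 0.266, and Npy was nearest to Sst (0.411) and Pvalb to Npy (0.536). Gad1 and Gad2 were nearest to each other (0.663), while Calb2 and Vip had no near member (1.22 to Gad2 and 1.08 to Npy). Among 10915 other genes, the closest were Rps3 for Sst (0.0515), H1fx for Cck (0.0662), Zfp236 for Npy (0.0521), Hnrnpr for Gad1 (0.0968), Urb2 for Gad2 (0.196), Prrc2a for Slc32a1 (0.190), Rapgefl1 for Pvalb (0.121), Dlx1 for Calb2 (0.199) and Sstr1 for Vip (0.143). With 7 libraries and this many candidates, near profiles are a description only.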

How the data were processed

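The deposited values are estimated counts per gene and per transcript, 1 column per library, made by the authors with Salmon 1.5.2 on mm10, per the submitters' processing notes. Per the labels' protocols, RNeasy columns yielded the total RNA, and the SMARTer Ultra Low Input chemistry turned it into libraries. The annotation release and the use of strand are not given in the sources used here. The counts are not scaled to a common total, 83.5% of gene values above 0 are not whole, and all were rounded for the tests. Names, lengths and GC content come from GENCODE M21 (GRCm38), which holds 22148 of 22248 gene identifiers and 101527 of 102392 transcript identifiers. The deposited identifiers carry a higher version for 22135 genes, so lengths may differ from those used in counting.

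AM6545 was compared with vehicle by edgeR 4.0.16 (quasi-likelihood, TMM, filterByExpr, robust, no covariate; R 4.3.3) over 14654 genes and 33962 transcripts. Fold changes are AM6545 over vehicle. Intervals cover 95% from the fit. Members and lists were chosen with earlier results of these data known. The rule for named genes took the 9 members, their transcripts, the 3 genes of the smallest p in each of 6 related lists, the 2 most abundant markers of each of 7 other cell types, the gene of the nearest profile to each member (mean CPM of at least 5) and Cnr1. Of those outside the 9, the text gives Cnr1, the nearest profiles and the list genes with an unadjusted p under 0.05, except 1 gene that is not reported here. CPM are counts per 1000000, and per-length values were scaled to the same sum. Profiles used log2(CPM + 0.1). Alternatives were other scalings (DESeq2 size factors, total counts, upper quartile), DESeq2 1.42.0, limma-voom with sample quality weights (limma 3.58.1), other filters (none, mean of at least 50 counts), a replicate block, correction for GC content and length (lowess, span 0.3) with and without that block, transcripts summed per gene, and leaving out each library, 18 fits in all for genes. The code was tested on simulated data.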

Additional observations from a re-analysis of the deposited data

Results flagged for a closer look

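Among 32 measurements of these genes, transcripts and ratios in the 4 AM6545 libraries, 1 had a library far from the rest. The normalised count of Gad1-206 was 3064 in AM6545 E and between 3751 and 3873 in the other 3, a gap of 0.849 of the whole range. Chance flags about 1 in 20 such groups.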

How the results depend on the processing

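The number of genes past the threshold, 1 of 14654 with edgeR, was 205 with DESeq2, 394 with limma-voom with quality weights (2 choices changed at once), 2 with a mean of at least 50 counts, 0 with the correction for GC content and length (988 at an unadjusted p under 0.05), and 0 to 944 when single libraries were left out, the highest without vehicle E. Of the 9 genes 0 passed with edgeR, 1 with that limma-voom fit (Npy, -0.40, adjusted p 0.0460) and 0 to 5 without single libraries, 0 in each of these fits but that without vehicle E. Transcripts past the threshold, 6 with edgeR, numbered 431 with DESeq2, 10 with a mean of at least 50 counts and 1 to 14 without single libraries.

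Gad1, Gad2, Slc32a1 and Pvalb kept their sign in all 18 alternative fits. Calb2 turned to -0.10 with the weighted limma-voom fit and ranged from -0.012 to 0.36 without single libraries. Vip turned to 0.0035 with total counts and 0.045 with the weighted limma-voom fit, and ranged from -0.10 to 0.050 without single libraries. With the correction for GC content and length Cck was 0.032, Npy 0.041 and Cnr1 -0.0054; with that correction and the replicate block Cck was 0.0079, Npy 0.024 and Sst 0.0032. Without single libraries Cnr1 ranged from -0.012 to 0.22, the difference in log2 Npy/Sst from -0.070 to 0.072, and that in log2 Sst/Pvalb from -0.23 to 0.096. The cause of these changes was not tested.

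The labels do not say whether the replicate letters mark a shared batch. Deviations of libraries with the same letter correlated at -0.26 to -0.13, and no library correlated best with its own letter. With so few libraries these correlations cannot decide whether the letters pair the samples. With the letter as a replicate block, 1 gene, 0 of the 9 genes and 0 transcripts (1597 at an unadjusted p under 0.05) passed edgeR's test, and log2 Sst/Pvalb differed by 0.0033. Fold changes under the block were -0.41 for Sst, -0.46 for Cck, -0.44 for Npy and 0.29 for Gad1.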
